A study of Nasonia vitripennis and Nasonia giraulti with 12 samples.

Results

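Of the 24337 genes counted in whole adult jewel wasps, 97 were abundant and nearly level across both sexes and both species. They are the genes with a mean of at least 100 CPM in each of 4 groups (CPM is the count scaled to a common library total), and with a range of group levels of at most 0.4 on the log2 scale, where a group level is log2 of the mean CPM of 3 libraries plus 0.5. That range allows the highest group to stand at most 1.32 times above the lowest. A further 870 genes reached 100 CPM in all 4 groups but spanned a wider range, so the even genes were 10.03% of the 967 abundant genes. The members were chosen by the measured group means, so their evenness between sexes and between species is a description and carries no test.

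The 4 groups were males and females of Nasonia giraulti (strain R16A) and males and females of Nasonia vitripennis (strain AsymCX), all taken as adults 24 h after leaving the pupal case. A pool of 10 whole animals of 1 sex went into each library, and each group had 3 libraries, described in the labels as independent batches. The labels give no treatment, and each species is represented by 1 strain. Total counts ran from 23763596 to 51374887 per library, and the library numbered 1 was the deepest of each group. Because whole bodies were measured, fewer cells of a type and less RNA per cell cannot be told apart. An even whole-body level can also be the sum of organs that differ. The identifiers in the file are not paired with gene names, and 0 of them matched a RefSeq name table of 15501 genes, so what the 97 genes encode is not stated.

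Wasps are haplodiploid: males hatch from unfertilised eggs with a single chromosome set and females from fertilised eggs with a pair of sets. Genes whose transcripts hold a steady share of the RNA pool in unlike samples are widely used as reference genes, against which the levels of other genes are measured. In animals, commonly used reference genes take part in translation, energy supply or the cytoskeleton. A gene can serve in that way only if its level is steady between repeated samples as well as between conditions, and the rule for the 97 genes used only the means of the conditions.

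**Figure D1:**
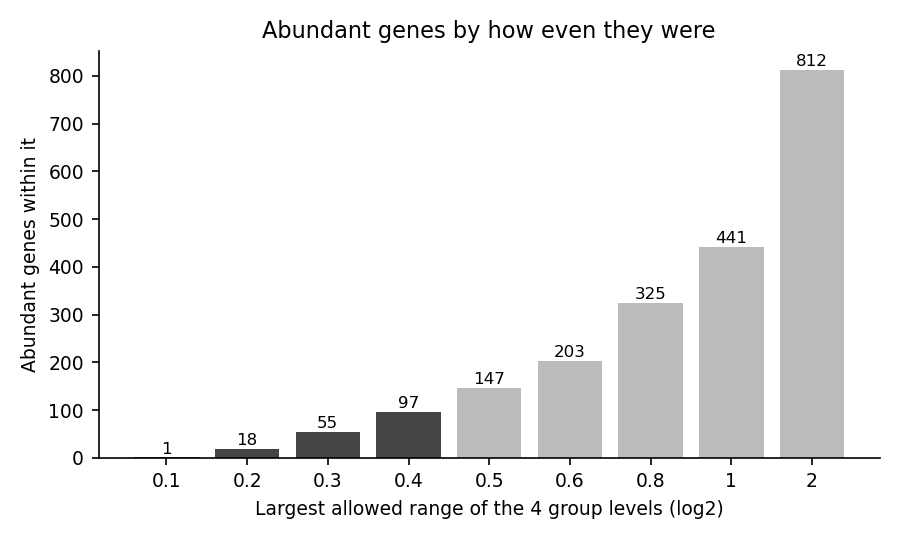
Number of the 967 genes with at least 100 CPM in all 4 groups (vertical axis) whose 4 group levels lay within the range on the horizontal axis (log2, cumulative). Dark bars are at or under the limit of 0.4, where 97 genes were found, against 441 genes within a range of 1.

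Few abundant genes were as level as this. Within a range of 0.1 there was 1 gene, within 0.2 there were 18 and within 0.3 there were 55. At a range of 0.5 there were 147 and at 1, a 2-fold span, there were 441, or 45.6% of the abundant genes. The median range was 0.28 among the even genes, 1.21 among the other abundant genes and 1.57 over the 16536 genes that passed the filter on low counts. All 97 even genes passed that filter. Under the limit, Nasvi2EG000256 had a range of 0.3999, with means of 177.1 ± 23.2 CPM in N. giraulti males, 184.5 ± 19.7 in N. giraulti females, 190.7 ± 14.02 in N. vitripennis males and 233.8 ± 25.1 in N. vitripennis females (SD, n = 3). Just over it, Nasvi2EG012183 had a range of 0.401, with 148.5 ± 33.0, 163.5 ± 30.7, 196.3 ± 78.7 and 154.8 ± 44.2 CPM in the same groups. The SDs of this gene were larger than most of the differences between its group means.

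**Figure D2:**
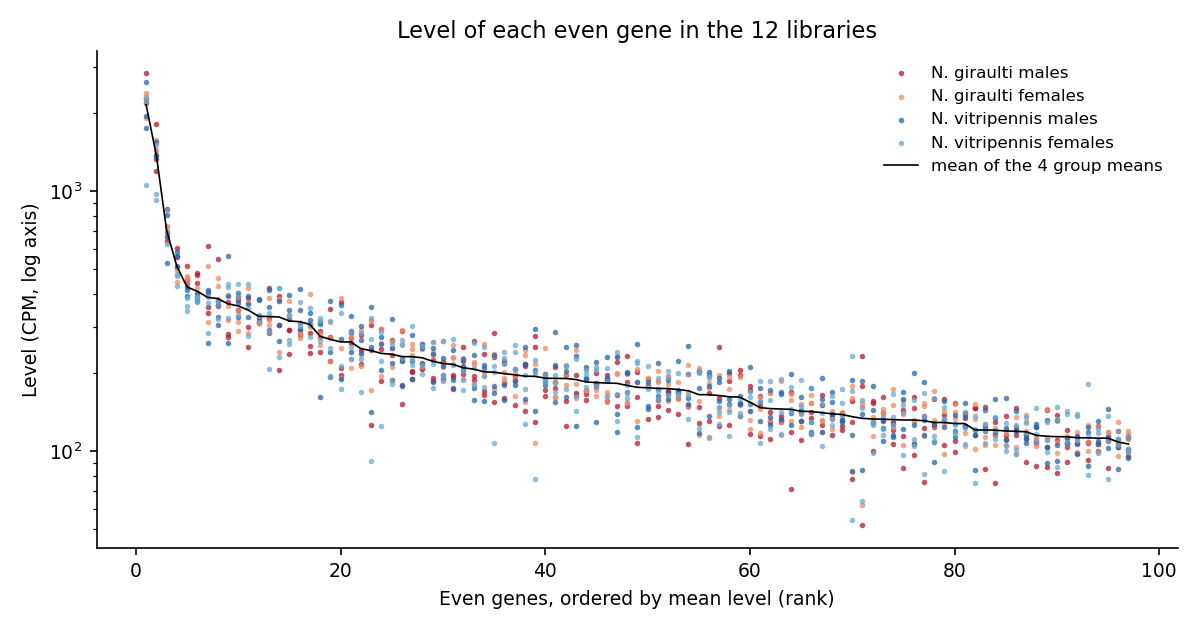
Level of each of the 97 even genes (CPM, log axis) in each of the 12 libraries, with genes ordered by mean level from left to right. Points are libraries coloured by group and the line is the mean of the 4 group means, which runs from 2142 CPM at the left to 106.5 CPM at the right.

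Most even genes lay close to the minimum level. Their mean over the groups had a median of 175.9 CPM and ran from 106.5 to 2142 CPM. For 62 of them it was under 200 CPM and for 4 it was at least 500 CPM. CPM values are not divided by transcript length, so this order is of reads and not of molecules. The other abundant genes had a median of 320.2 CPM. Both sets had to reach 100 CPM in their lowest group, so the wider range of the other genes itself raises their mean. Together the 97 genes took 2.27% ± 0.0771 of all counts in N. giraulti males, 2.31% ± 0.0244 in N. giraulti females, 2.31% ± 0.105 in N. vitripennis males and 2.20% ± 0.0806 in N. vitripennis females (SD, n = 3). In the 12 libraries this share lay between 2.11% and 2.43%. The other abundant genes took 48.7% ± 0.735 in N. giraulti males, 43.3% ± 1.98 in N. giraulti females, 46.97% ± 0.463 in N. vitripennis males and 40.3% ± 4.07 in N. vitripennis females. The even genes' share was lowest in the library numbered 1 of each group, at 2.21%, 2.28%, 2.25% and 2.11% in the same order.

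The even gene with the most reads was Nasvi2EG013335. It stood at 2169, 2254 and 2830 CPM in the N. giraulti male libraries and at 1899, 2317 and 2379 CPM in the N. giraulti female libraries. In N. vitripennis it stood at 1752, 2613 and 1942 CPM in males and at 1056, 2286 and 2205 CPM in females. All 4 groups overlapped, and the low value of a single N. vitripennis female library set the lowest group mean. The next, Nasvi2EG023157, stood at 1812, 1194 and 1322 CPM in N. giraulti males and at 1564, 1430 and 1425 CPM in N. giraulti females. In N. vitripennis it stood at 1548, 1369 and 1357 CPM in males and at 1495, 921.8 and 975.9 CPM in females. The library numbered 1 was the highest of its group in each case, and the groups overlapped.

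The gene with the narrowest range, Nasvi2EG010430, differed by 0.06 on the log2 scale between its highest and lowest group. It had 100.1, 124.9 and 106.6 CPM in N. giraulti males, 107.0, 125.1 and 99.1 CPM in N. giraulti females, 109.5, 130.1 and 106.3 CPM in N. vitripennis males and 116.9, 122.1 and 98.2 CPM in N. vitripennis females. The library numbered 2 was the highest of each group, and the libraries of a group lay farther apart than the groups did. Its SD between replicates, pooled over the groups, was 0.16 on the log2 scale. It holds fractional counts, so its level is uncertain. The second narrowest, Nasvi2EG003817, had group means of 142.4 ± 25.05, 141.7 ± 22.4, 153.7 ± 22.2 and 149.98 ± 40.2 CPM (SD, n = 3) in the same order, and in every group its library numbered 1 was the highest and its library numbered 3 the lowest.

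The directions in this paragraph are by library totals, which the rule used, and some majorities turn under other scalings, as given in the next paragraph. N. giraulti males were below N. vitripennis males for 67 of the even genes and above them for 30. N. giraulti females were below N. vitripennis females for 45 and above them for 52. The group with the highest level was N. giraulti males for 15 genes, N. giraulti females for 23, N. vitripennis males for 39 and N. vitripennis females for 20. The group with the lowest level was N. giraulti males for 42 genes, N. giraulti females for 17, N. vitripennis males for 15 and N. vitripennis females for 23. Males were above females in both species for 32 genes and below them in both for 31. For 28 genes males were below females in N. giraulti and above them in N. vitripennis, and for 6 the reverse. N. giraulti was above N. vitripennis in both sexes for 20 genes and below it in both for 35. For 32 genes N. giraulti was below N. vitripennis in males and above it in females, and for 10 the reverse. The median difference of males from females was -0.05 log2 CPM in N. giraulti and 0.04 in N. vitripennis, and that of N. giraulti from N. vitripennis was -0.07 in males and 0.02 in females.

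The evenness is tied to scaling each library by its total count. Trimmed-mean factors (TMM), which assume that most genes do not change, moved every log2 difference of males from females by 0.29 in N. giraulti and by -0.11 in N. vitripennis. They moved every difference of N. giraulti from N. vitripennis by 0.20 in males and by -0.20 in females. N. giraulti was then above N. vitripennis for 74 of the 97 genes in males and for 15 in females. Males were above females for 87 genes in N. giraulti and for 38 in N. vitripennis under the TMM factors. With these factors the median sex difference of the even genes, males minus females, was 0.24 in N. giraulti and -0.06 in N. vitripennis. Of the 97 genes, 64 still lay within a range of 0.4. With DESeq2 size factors 64 of the 97 lay within it too, and N. giraulti males were above N. vitripennis males for 73 genes. Upper-quartile scaling moved the sex differences by 0.64 in N. giraulti and 0.46 in N. vitripennis. All 97 genes were then higher in males than in females in both species, with medians of 0.59 and 0.52, and 7 lay within 0.4. Applying the whole rule again under these scalings gave about as many genes (91 with TMM, 104 with DESeq2 size factors and 99 with the upper quartile), of which 60, 62 and 7 were among the 97.

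**Figure D3:**
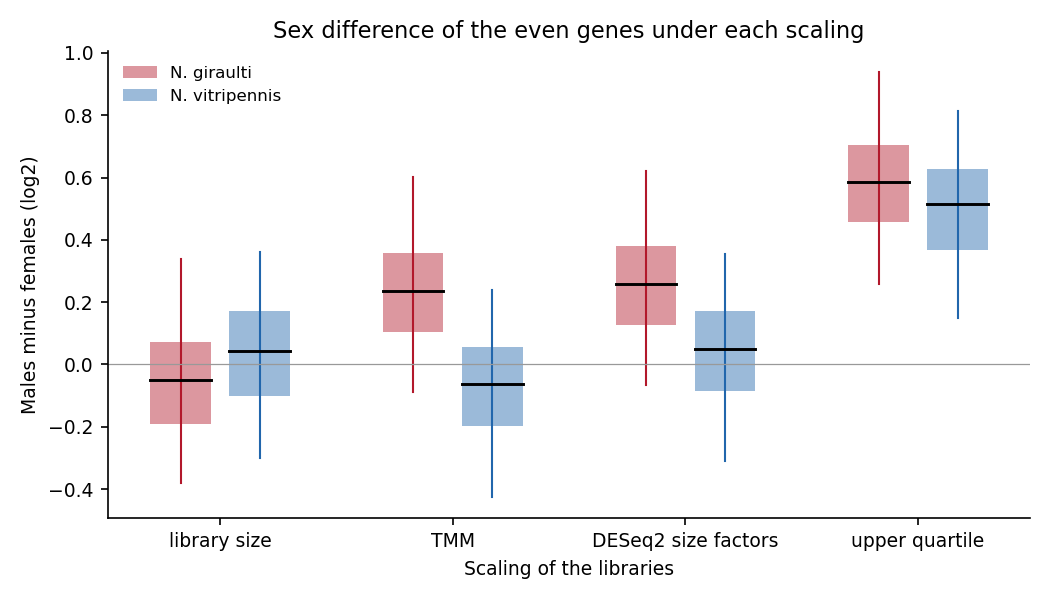
Difference of males from females (log2) over the 97 even genes in N. giraulti (red) and N. vitripennis (blue) under each scaling of the libraries. Boxes span the quartiles, black lines are medians and thin lines run from the lowest to the highest gene. The medians lie within 0.05 of 0 when libraries are scaled by total count, and at 0.59 in N. giraulti and 0.52 in N. vitripennis with upper-quartile scaling.

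In the fit with TMM factors, 11 of the 97 genes (11.3%) were called for sex in at least 1 species, against 74.1% of all 16536 genes tested (quasi-likelihood test of edgeR, p adjusted by Benjamini and Hochberg under 0.05). Of these, 9 were called higher in N. giraulti males than in N. giraulti females (background 30%) and 2 lower in N. vitripennis males than in N. vitripennis females (background 32.4%). For species, 4 of the 97 (4.12%) were called in at least 1 sex against 43.6% of all genes, 2 of them higher in N. giraulti males (15%) and 2 lower in N. giraulti females (18.4%). The rule used these same contrasts, so nothing is read from the low counts. Each direction that was called is the direction of the TMM shift. With library totals alone the edgeR counts were 0 for sex (1 at an unadjusted p under 0.05) and 0 for species (2 at an unadjusted p under 0.05), against 73.6% and 43.9% of all genes. DESeq2 with its own size factors called 14 for sex and 4 for species, against 74.8% and 45.1% of all genes. With upper-quartile scaling 67 genes (69.1%) were called for sex, against 78.8% of all genes. With the replicate number as a block, 37 of the 97 (38.1%) were called for sex and 19 (19.6%) for species, against 85.2% and 64.7% of all genes in that fit. Without any one of the 6 N. giraulti libraries, or without N. vitripennis male library 2 or 3, 2 to 7 genes were called for sex, against 67.6% to 73.7% of all genes in those fits. For species, 0 were called without N. giraulti female library 1 or 2 (11 and 13 at an unadjusted p under 0.05; DESeq2 was not run on these sets), and 1 without N. giraulti female library 3, N. vitripennis male library 2 or 3 or N. vitripennis female library 2, against 37.4% to 42.4% of all genes.

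Whether the sex difference depended on species was called for 0 of the 97 genes by edgeR, with 10 at an unadjusted p under 0.05, against 7.02% of all genes tested. DESeq2 also called 0, against 9.11% of all genes. With the replicate block edgeR called 8 (8.25%), against 16.9% of all genes. A difference that misses the threshold is not shown to be absent. In the fit without the replicate number, the standard error of a group difference had a median of 0.20 log2 units in each of the 4 contrasts. In that fit a 95% interval of a difference with that error is wider than the range the rule allows. For Nasvi2EG004562 the standard error was 0.53. A difference between replicate numbers that the groups share counts as spread in that fit. Its common dispersion was 0.111, against 0.0477 with the replicate block, and standard errors with the block are not given.

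The rule used the means of these same libraries and not their spread. A gene with a large spread is less likely to have 4 close means, so the choice of members bears on the spread as well, and it is given as a description. Within a group, the 3 libraries of an even gene differed by an SD of 0.24 log2 units (median over the 97 genes, pooled over the 4 groups), against 0.27 for the other abundant genes and 0.31 for all genes tested. It ran from 0.06 to 0.82. For 64 of the 97 it was below the median of the other abundant genes. For 38 of the 97 it was larger than the whole range between the 4 groups, against 5 of the 870 other abundant genes, whose wider range the rule sets. Counting error was far smaller. The lowest count of an even gene in any library was 2055 (Poisson 95% interval 1967 to 2146, counting error only), and the SD expected from counting alone had a median of 0.019. The SD between libraries was above it for all 97 genes, by at least 4.2 times.

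The even gene with the smallest spread between replicates was Nasvi2EG013799, with a pooled SD of 0.06 log2 units. It stood at 477.1, 481.9 and 443.0 CPM in N. giraulti males, 422.1, 383.6 and 397.3 CPM in N. giraulti females, 391.6, 377.0 and 404.9 CPM in N. vitripennis males and 391.5, 373.0 and 391.8 CPM in N. vitripennis females. The N. giraulti males lay above all other libraries by this scaling, although the range of its group levels was 0.28, and the other groups overlapped. In the TMM fit this gene was called higher in N. giraulti males than in N. giraulti females (log2 difference 0.51, edgeR adjusted p = 0.0145). It was also called higher in N. giraulti males than in N. vitripennis males (0.46, edgeR adjusted p = 0.0429). The rule used these contrasts, and the TMM factors add 0.29 and 0.20 to these 2 differences, so nothing is read from the calls. With library totals alone 0 of the 97 genes were called for sex or species. Nasvi2EG004375 followed with an SD of 0.07, at 309.3, 324.1 and 315.3 CPM in N. giraulti males, 311.0, 311.9 and 310.4 CPM in N. giraulti females, 329.9, 384.0 and 380.8 CPM in N. vitripennis males and 313.1, 329.8 and 334.4 CPM in N. vitripennis females. The highest of the 12 libraries stood 1.24 times above the lowest for this gene, the least of the 97. Over the even genes that span had a median of 1.70 times and reached 4.47 times, and it was at most 2-fold for 72 genes and at most 1.5-fold for 17. Of the 870 other abundant genes, 84 stayed within 2-fold. The span includes the group differences that the rule bounds only for the even genes, so nothing is read from this contrast.

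Many of the even genes differed between the numbered replicates. In a fit with a mean for each group and a term for the replicate number, 37 of the 97 genes (38.1%) were called, against 33.5% of all 16536 genes tested and 29.2% of the other abundant genes (F test of edgeR's quasi-likelihood fit, p adjusted by Benjamini and Hochberg under 0.05, 12 libraries). The share among the even genes is near that of all genes, and the difference between these shares was not tested. In all 37 the libraries numbered 1 were the highest or the lowest of the 3 numbers, as in 95.7% of the called genes among all those tested and 92.5% of those among the other abundant genes. They were higher in 17 genes (background 19%) and lower in 20 (background 14.5%), by 0.24 to 1.32 log2 units. Without N. giraulti female library 3, 23 of the 97 (23.7%) were called, against 23.1% of all genes in that fit. Between the libraries numbered 2 and 3 alone, edgeR called 0 of the 97 (13 at an unadjusted p under 0.05; DESeq2 was not run on these 8 libraries), against 40 of all 16471 genes tested (0.243%).

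**Figure D4:**
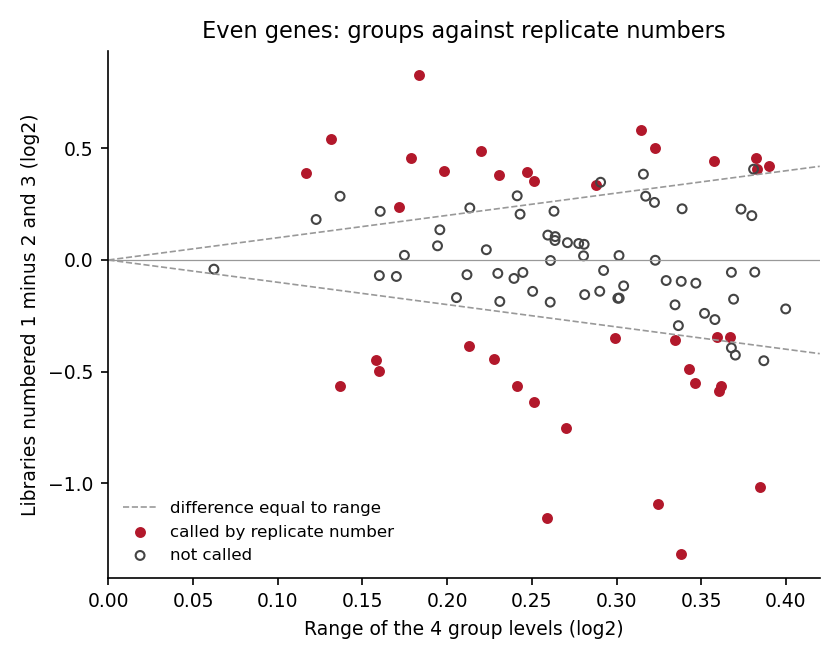
Each of the 97 even genes by the range of its 4 group levels (horizontal axis, log2 CPM) and by the difference of the libraries numbered 1 from those numbered 2 and 3 (vertical axis, log2, TMM-scaled fit). Filled points are the 37 genes called by replicate number and open points the other 60. Beyond the dashed lines the replicate difference exceeds the range between groups, which it does for 46 genes. The rule holds that range to 0.4, so any larger replicate difference lies beyond the lines. The median absolute replicate difference was 0.24 in the even genes, 0.27 in the other abundant genes and 0.38 in all genes tested.

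Nasvi2EG034339 was the gene with the largest excess in the libraries numbered 1. It had 373.4 CPM in the N. giraulti male library numbered 1 against 196.9 and 208.0 in those numbered 2 and 3, and 387.5 against 190.2 and 248.0 CPM in N. giraulti females. In N. vitripennis it had 363.8 against 190.0 and 268.9 CPM in males and 340.5 against 173.6 and 212.9 CPM in females. The 4 libraries numbered 1 lay above the 8 others without overlap, while the range between groups was 0.18. The log2 difference was 0.83 (SE 0.10), with an edgeR adjusted p of 0.000671 and the same direction in 4 of 4 groups.

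Nasvi2EG029070 came next, with 198.6 against 148.9 and 106.9 CPM in N. giraulti males and 214.6 against 169.2 and 147.1 CPM in N. giraulti females for library 1 against libraries 2 and 3. In N. vitripennis it had 254.5 against 151.5 and 159.6 CPM in males and 198.0 against 164.8 and 132.8 CPM in females. The libraries numbered 1 again lay above the 8 others, by 0.58 log2 units (SE 0.12, edgeR adjusted p = 0.00877).

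The largest deficit in the libraries numbered 1 was that of Nasvi2EG004562, which also had the largest SD between replicates. It had 51.9 against 177.6 and 232.0 CPM in N. giraulti males, 61.8 against 153.6 and 149.4 CPM in N. giraulti females, 84.5 against 185.9 and 139.0 CPM in N. vitripennis males and 64.3 against 146.0 and 157.4 CPM in N. vitripennis females. The 4 libraries numbered 1 lay below the 8 others without overlap. The log2 difference was -1.32 (SE 0.16, edgeR adjusted p = 0.000727), while the group levels spanned 0.34. This gene holds fractional counts, so its level is uncertain. Nasvi2EG005061 had 126.3 against 243.9 and 304.1 CPM in N. giraulti males, 171.6 against 316.1 and 319.6 CPM in N. giraulti females, 141.7 against 358.8 and 250.6 CPM in N. vitripennis males and 91.4 against 325.3 and 269.0 CPM in N. vitripennis females. It too lay below the 8 others in each library numbered 1, by -1.16 log2 units (SE 0.15, edgeR adjusted p = 0.00114), with a range between groups of 0.26.

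**Figure D5:**
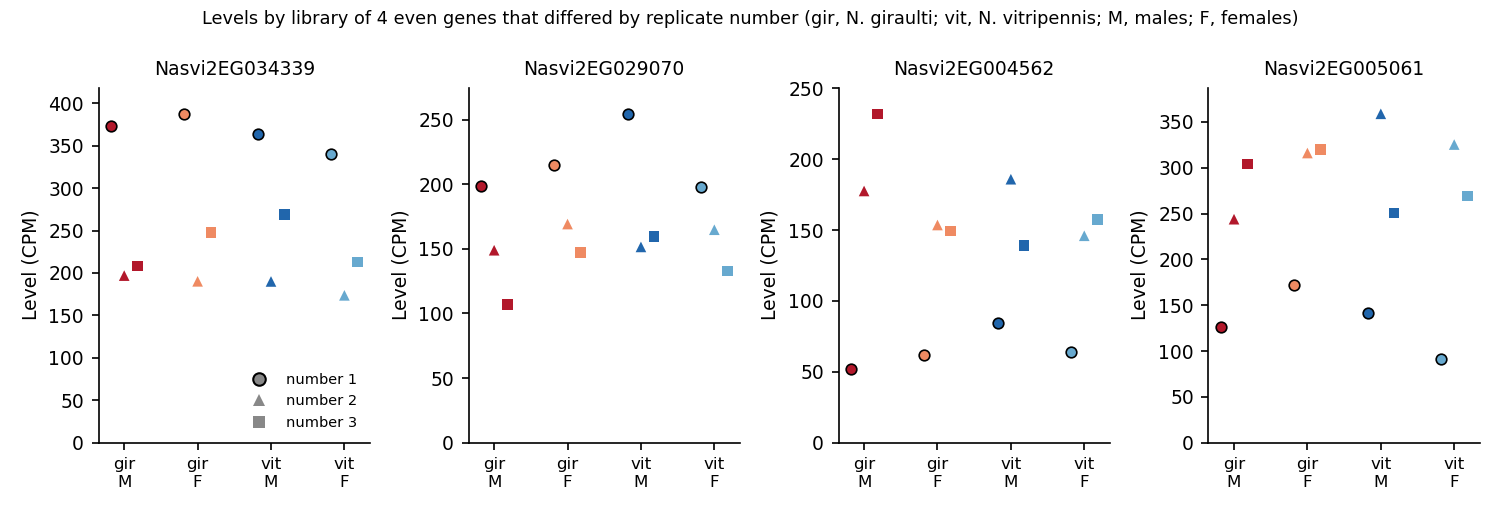
CPM in each of the 12 libraries for the even genes with the largest excess (left pair) and the largest deficit (right pair) in the libraries numbered 1, among those called by replicate number. Circles with a black edge are the libraries numbered 1, triangles those numbered 2 and squares those numbered 3. In Nasvi2EG034339 the circles lie between 340.5 and 387.5 CPM, above every other point.

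The replicate pattern ran through all 4 groups. The library numbered 1 was the lowest of its group in every group for 24 of the 97 genes and the highest in every group for 18, and among the 870 other abundant genes for 129 and 124. The median even gene stood below its group mean in the library numbered 1 of each group, by 0.01 to 0.14 log2 CPM. This was not particular to number 1 in N. vitripennis. There the median deviation was -0.05 in male library 1 and -0.04 in male library 3, and -0.01 in female library 1 and -0.03 in female library 3. Nothing in the labels ties libraries of the same number to a shared batch. The libraries numbered 1 were also the deepest, with 39045479 to 51374887 counts against 23763596 to 34946172 in the others, and the part of depth in the difference was not tested.

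Evenness was then looked at in libraries that had not been used to choose the genes. The abundant genes not chosen had a range above 0.4 in the libraries used for the choice. The shares are given as a description, and no test was made. With the libraries numbered 1 left out, the rule chose 102 genes, of which 72 were among the 97. In the 4 libraries numbered 1, 33 of the 102 (32.4%) lay within 0.4, against 31 of 867 (3.58%) abundant genes that had not been chosen, and the median ranges were 0.55 and 1.38. With the libraries numbered 2 left out, 92 genes were chosen and 38 (41.3%) lay within 0.4 in those libraries, against 29 of 878 (3.30%). With the libraries numbered 3 left out, 77 were chosen and 39 (50.6%) lay within 0.4, against 57 of 870 (6.55%). A range over 4 single libraries tends to be wider than a range over 4 means. The genes were also chosen for close means in the other libraries. How far either lowered these shares was not tested. Of the 97 genes, 20 lay within 0.4 in each of the 3 sets of same-numbered libraries, all of which had been used to choose the 97.

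Among the 97 genes, 15 (15.5%) held fractional values in at least 1 library, close to the 16.2% of the other abundant genes and the 13.9% of all genes. For 8 of these 15 a neighbouring row completed whole counts in every library. The tolerance was 0.02 reads plus 2e-05 of the sum, so at large sums the check can hardly fail. At such sums it does not settle whether the neighbours had shared out reads. In 5 of the 8 the summed pair also lay within a range of 0.4. Nasvi2EG028416, the member closest to the minimum level, held 13.5% of the reads of its pair. Its own group means were 110.2 ± 8.45 CPM in N. giraulti males, 110.8 ± 16.9 in N. giraulti females, 100.2 ± 13.5 in N. vitripennis males and 112.1 ± 6.81 in N. vitripennis females (SD, n = 3), a range of 0.16, but the pair summed to a range of 1.60. Nasvi2EG004375 held 50.5% of its pair, which had a range of 0.68. By the summed counts neither of these 2 genes would meet the range. Both pairs have large sums, so whether they had shared out reads is not settled.

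In the order of the identifiers, no 2 of the 97 genes stood in adjacent rows, the smallest gap being 6 rows and the median gap 135.5. Of the 194 rows next to an even gene, 16 (8.25%) were abundant in all 4 groups, against 3.97% of all genes. The 176 of them that passed the filter on low counts had a median range of 1.36, against 1.57 over all genes tested. Whether identifiers follow the order of genes on the genome is not stated in the labels or the file.

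Genes that were higher and genes that were lower in the libraries numbered 1 both stood among the 97. Over the 4656 pairs of even genes, the correlation of their deviations from the group means across the 12 libraries had a median of 0.05 and quartiles of -0.48 and 0.54. Over pairs of the other abundant genes the median was 0.03 and the quartiles -0.38 and 0.43. These values describe genes that share the same libraries and the same scaling to total counts.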

How the data were processed

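The authors deposited estimated counts of reads, not scaled, for 24337 genes in 12 libraries, 3 for each sex of each species. Per the submitters' processing notes, the tools were TopHat2 2.0, Cufflinks 2.1.0, HTSeq, edgeR, bedtools, Trimmomatic, FastQC and CASAVA 1.8.2, with no role or order stated. Neither build nor annotation is given in the sources used here, and it is not stated whether reads of the 2 species were aligned to 1 genome. A reference closer to one species could lower the counts of the other. Whether this moved genes into or out of the range that defines an even gene was not tested. Input was 2 ug of total RNA per library, per the labels' protocols.

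CPM were the deposited counts divided by the column sum. For tests, counts were rounded to whole numbers, kept with filterByExpr by group (minimum count of 10) and scaled with TMM, leaving 16536 genes, of which 16.7% held fractional values. A quasi-likelihood fit over all 12 libraries (edgeR 4.0.16, R 4.3.3, robust) gave the contrasts, with a mean per group, and the F test of the replicate number, with that number as a further term. P-values were adjusted over all genes tested by Benjamini and Hochberg, and genes under 0.05 were called. The procedure was also run on simulated independent whole counts, whose dispersion was set lower than that of the main fit. No result here rests on that run. The common dispersion was 0.111, against 0.0477 in the fit with the replicate block. Counts, unlike the design's assumption of whole counts, were partly fractional. DESeq2 1.42.0 was an alternative, with other scalings, filters and left-out libraries.

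Deviations from group means correlated between groups with r from 0.228 to 0.746 for all 18 pairs of libraries with the same number. For the 36 other pairs r ran from -0.63 to 0.403. Libraries of the same number thus tended to deviate alike, but the 2 ranges overlap. Between numbers 2 and 3 alone 40 of 16471 genes were called, so pairing by each of the 3 numbers is not shown. The likeness of same-numbered libraries comes from the data and not from the labels. Libraries of a group differed beyond sampling noise (chi-square per degree of freedom from 44.0 to 301.0), and p-values measure the spread between these pools.

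The members, the comparisons and the genes to be named were chosen with earlier results of these data known. Named were the 2 members with the most reads, the narrowest range and the smallest SD between replicates, the member with the largest such SD, those nearest the limits, and the 2 most raised and 2 most lowered in the libraries numbered 1 among those called. The second largest SD is left unnamed to keep to 2 identifiers per direction. The lists of genes by product name could not be formed, since 0 identifiers matched.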

Additional observations from a re-analysis of the deposited data

How the results depend on the processing

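Leaving out each of the 12 libraries in turn, the rule gave 87 to 99 genes, of which 76 to 89 were among the 97. Over the same fits edgeR called 2 to 12 of the 97 for sex, 0 to 6 for species and 23 to 33 by replicate number. The shares of all genes called in those fits were 67.6% to 73.7%, 37.4% to 45.5% and 23.1% to 30.6% in the same order. The members' mean share of counts, 2.27%, lay between 2.26% and 2.29%, and the median SD between replicates between 0.205 and 0.251. A minimum of 50 CPM gave 197 genes and of 200 CPM 29, and a range of 0.3 gave 55 and of 0.5 147. The share was 2.00% without genes with fractional counts and 2.47% of the counts left without the 10 most abundant genes of each library.

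For sex, 11 members were called in the main fit, against 74.1% of all genes, and brackets give that share in each other fit. The count became 67 with upper-quartile scaling (78.8%), 0 with library size alone (73.6%) and 2 with no filter on low counts (52.2%). It was 22 at a mean of at least 1 CPM (78.7%) and 37 with the replicate block (85.2%). In the libraries numbered 2 and 3 it was 25 (78.2%). For species, 4 became 2 with DESeq2 size factors in edgeR, 1 with upper-quartile scaling, 0 with library size alone, 1 with no filter, 2 at 1 CPM, 19 with the replicate block and 10 in the libraries numbered 2 and 3. By replicate number, 30 to 41 of the 97 were called under the other scalings, filters and DESeq2, against 23.3% to 40.7% of all genes. Between the libraries numbered 2 and 3 the count was 0, against 0.243% of all genes. In those libraries the median SD was 0.153 for the even genes and 0.186 for the other abundant genes. The direction and call of the 4 genes named for the replicate number were the same under each alternative run for them. The cause of these changes was not tested, beyond the shift that each scaling adds to every difference. Counting alone gave a median SD of 0.019 over the even genes, below the SD between libraries for each of them. Restricting the libraries was chosen after the data were seen.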
